A study of Mus musculus with 6 samples.

Results

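Serotonin is made from tryptophan by a hydroxylase and then a decarboxylase, and the 10 genes described here act around that hydroxylation: Ddc (the decarboxylase), Gch1, Pts, Spr, Pcbd1 and Qdpr (synthesis and recycling of the hydroxylase cofactor tetrahydrobiopterin), Slc18a1 and Slc18a2 (loading of monoamines into vesicles), and Maoa and Maob (breakdown). They were taken by gene symbol, as every probe set to which the platform annotation gives 1 of these symbols and no other, which found 17 probe sets for 10 of the 18193 genes named on the array. RNA came from pancreatic islets, the clusters of hormone-secreting cells in the pancreas, isolated by collagenase. The non-pregnant group (0 days post coitum, or dpc) and the pregnant group (12.5 dpc) had 3 arrays each. The study asked what makes islets proliferate in pregnancy. The labels give no strain, age, genotype or pooling of animals, and nothing in them says that the 3 arrays of a group were separate animals, so p-values reflect the spread between these samples alone, and it may be technical.

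Beta cells of the mouse islet can make serotonin, which is stored in granules beside insulin. Tryptophan hydroxylase needs tetrahydrobiopterin as an electron donor. GTP cyclohydrolase (Gch1), pyruvoyl tetrahydropterin synthase (Pts) and sepiapterin reductase (Spr) build this cofactor from GTP, and after each hydroxylation pterin carbinolamine dehydratase (Pcbd1) and dihydropteridine reductase (Qdpr) regenerate it. The decarboxylase, which uses pyridoxal phosphate, then makes serotonin from 5-hydroxytryptophan and also dopamine from DOPA. The vesicular monoamine transporters VMAT1 (Slc18a1) and VMAT2 (Slc18a2) exchange protons for amine, and the monoamine oxidases of the outer mitochondrial membrane oxidise what stays in the cytosol.

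Levels are MAS5 signals, intensities corrected for background and scaled per array. The median signals lay between 86.1 and 100.3, and control probe sets for a bacterial transcript (TrpnX) between 1.1 and 32.3. The brightest signals were 51107 to 64109, so none of the 17 probe sets was near the top of the range. RNA integrity, read as the 3' signal over the 5' signal of a control transcript, was 0.669 to 0.725 for Gapdh and 1.56 to 1.66 for beta actin. The beta cell markers, which check the labelled tissue, were bright, with a summed signal over 9 genes of 170931 to 182316 without and 178953 to 181203 with pregnancy. Among them 1 rose (Pcsk1, 0.94 on the log2 scale) and 2 fell (Slc2a2, -0.25, and Slc30a8, -0.29). The groups also differed in other cell types: 17 of 18 acinar markers tested were lower in pregnancy and 0 higher (summed signal over 19 genes 203905 to 381384 against 119077 to 192710, with Rbpjl never above 32.3), as were 3 of 7 stellate cell and fibroblast markers (7194 to 7301 against 3556 to 5129). Of 7 macrophage markers 1 rose, the complement chain C1qa (log2 difference 1.06), and 0 fell, with a median of 0.0031 over the list. The list's summed signal of 6078 to 6819 against 9409 to 10474 is higher through C1qa, whose mean went from 3505 to 7300. The other macrophage markers did not pass and went both ways. Csf1r had -0.28, C1qb -0.17 and Cd14 -0.26, while Lyz2 had 0.16, Cd68 0.056 and Adgre1 0.0031. Lower calls were also 1 of 4 alpha cell markers (Irx1, -0.40), 1 of 8 endothelial (Flt1, -0.47) and 1 of 3 duct (Krt7, -0.27). Those lists had 0 higher, and delta cell and sympathetic nerve markers gave no call. A covariate for acinar content was used for some genes, but it was lower on every pregnant array than on any non-pregnant one. It therefore cannot separate acinar content from pregnancy. The part of these cell types in the members' values was not tested. In such bulk samples fewer cells of a type and less RNA per cell cannot be told apart.

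Of the 17 probe sets, 13 were bright enough to be tested, which means in the top 60% by mean log2 value (a mean signal of about 50.5 or more). Past the threshold of a Benjamini-Hochberg adjusted p of 0.05 in limma, 1 was higher and 1 lower in pregnancy, and both were probe sets of Ddc. Over the whole array 9.57% of 27022 tested probe sets passed, 4.79% higher and 4.78% lower (1294 and 1293; 1430 and 583 with each array centred on its median). The median log2 difference, pregnant minus non-pregnant, was -0.04 over the 13 and -0.04 over all tested probe sets, and the median size of the difference was 0.12 against 0.17. At an unadjusted p under 0.05 there were 4 of 13, where the array had 22.9%. Counted by gene, with the brightest probe set of each, 1 of 9 genes rose (Ddc) and 0 fell, against 11.9% of 12914 genes in either direction, 6.10% higher and 5.79% lower. These shares lie near those of the array as a whole. The number of arrays limits the precision, and for each member probe set tested the text gives the 95% confidence interval of its fold change.

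**Figure D1:**
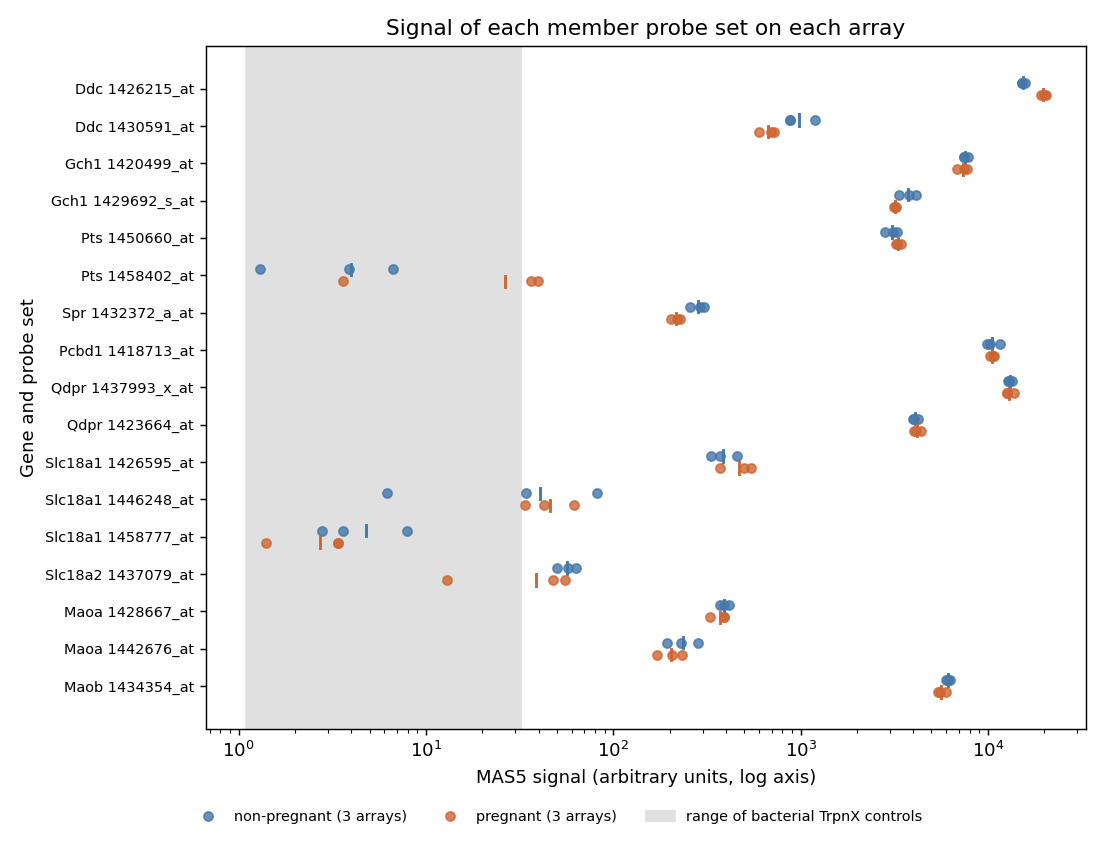
MAS5 signal (log axis) of the 17 probe sets on each array, with 3 non-pregnant arrays in blue and 3 pregnant arrays in orange. Vertical ticks are group means, and the grey band is the 1.1 to 32.3 spanned by the TrpnX controls. For Ddc 1426215_at the pregnant points lie right of the non-pregnant ones and for 1430591_at left of them, while the probe sets within or near the grey band were not tested.

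Ddc encodes aromatic L-amino acid decarboxylase, and its probe sets moved in opposite directions. Probe set 1426215_at had signals of 15144.9, 15162.6 and 15844.5 on the non-pregnant arrays and 20314.1, 19108.8 and 19820.4 on the pregnant ones. Every pregnant array was above every non-pregnant array, and the spread within each group was small beside the gap. The mean went from 15384 ± 399 (SD, n = 3) to 19748 ± 606 (n = 3), which is 28.4% more. On the log2 scale it rose by 0.36 ± 0.05 (standard error; limma adjusted p = 7.8e-04), with a 95% interval of 1.19 to 1.38 for the fold. The other probe set, 1430591_at, read 880.7, 1192.9 and 877.8 without pregnancy and 696.6, 599.6 and 724.4 with it. Again the groups did not overlap, but here all pregnant arrays were the lower ones, and non-pregnant replicate 2 stood above the other 2 of its group. Its mean was 984 ± 181 without and 674 ± 65.5 with pregnancy, a log2 difference of -0.53 ± 0.13 (limma adjusted p = 0.023) and a fold of 0.572 to 0.843.

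The calls of these probe sets were not equally firm. That of 1426215_at held with any 1 array left out (0.34 to 0.38, adjusted p 0.0014 to 0.0093). That of 1430591_at was lost without non-pregnant replicate 2 (-0.38, adjusted p = 0.075), without pregnant replicate 1 (-0.55, adjusted p = 0.063) and without pregnant replicate 2 (-0.45, adjusted p = 0.096). Neither passed without the trend of variance on signal in limma (adjusted p = 0.079 and 0.13), nor with a covariate for acinar content (the median of the acinar markers per array), where 1426215_at had 0.38 (adjusted p = 0.070) and 1430591_at had -0.87 (adjusted p = 0.053). The standard errors with this covariate were 0.09 and 0.20. Its centred log2 value was lower on every pregnant array (-0.89 to -0.25) than on any non-pregnant array (-0.11 to 0.99). Acinar content and pregnancy therefore cannot be told apart here. With the log2 values of both probe sets averaged, Ddc had -0.08 ± 0.07 (limma adjusted p = 0.55), so the gene's call rests on the probe set that stands for it.

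**Figure D2:**
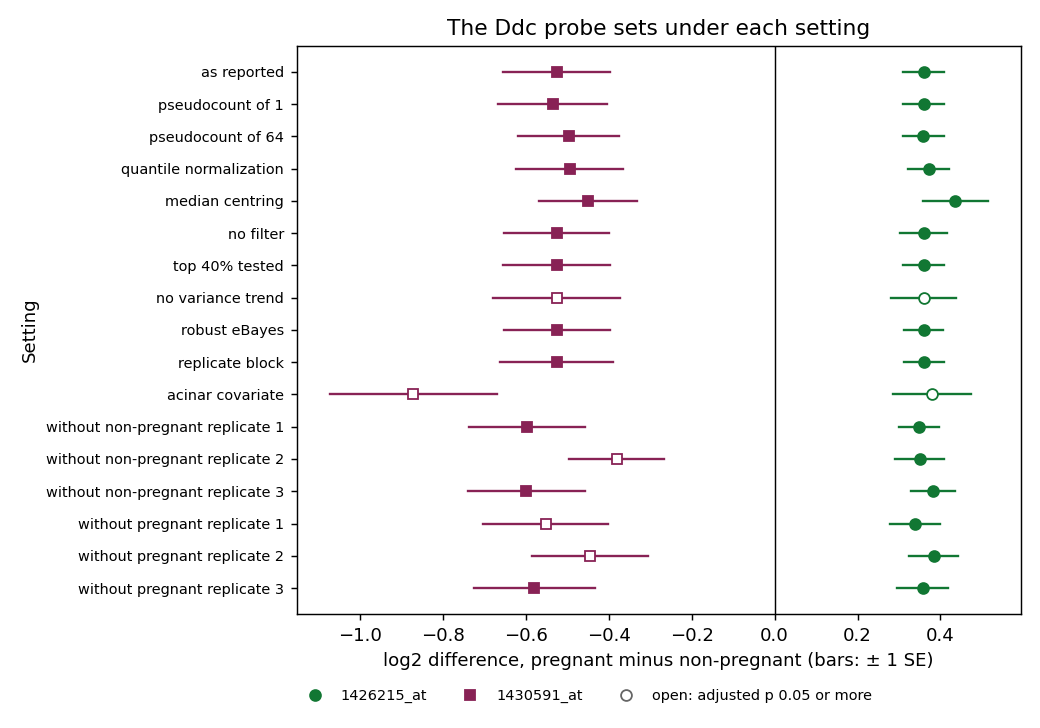
Log2 difference, pregnant minus non-pregnant, of the Ddc probe sets 1426215_at (green circles) and 1430591_at (purple squares) as reported and under each of 16 other settings, with bars of 1 SE; open symbols did not pass. The circles stay between 0.34 and 0.44 and the squares between -0.87 and -0.38.

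The difference between the Ddc probe sets was tested on its own, as the log2 value of 1426215_at minus that of 1430591_at on the same array. This was 4.08, 3.65 and 4.15 on the non-pregnant and 4.83, 4.96 and 4.74 on the pregnant arrays. It was higher on all 3 pregnant arrays, by 0.89 ± 0.17 (SE, n = 3 and 3; 2-sided exact permutation test p = 0.10, the smallest that 3 against 3 arrays allow). Leaving out any 1 array gave 0.73 to 0.98. The same comparison in the other 3 members with several tested probe sets gave 0.19 ± 0.08 for Gch1 (exact permutation p = 0.20), -0.05 ± 0.05 for Qdpr (exact permutation p = 0.40) and 0.11 ± 0.22 for Maoa (exact permutation p = 0.80). Adjusted over the 4 pairs, Ddc and Gch1 both had 0.40, Qdpr 0.53 and Maoa 0.80. Probe sets called in both directions were rare on this array: of 6088 genes with several tested probe sets there were 4, which is 0.0657%, namely Ddc, Get4, Ptprd and Srsf3. The 6088 include genes with no called probe set, such as Gch1, Qdpr and Maoa. The share among genes with several called probe sets was not analysed here.

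Ddc has more than 1 annotated start in RefSeq (GRCm38.p6), 7736 bases apart on the minus strand of chromosome 11. The sequences of both starts are shown because the probe sets of this gene disagree. Which start, exon or intron each probe set reads was not analysed here, so neither sequence is tied to either probe set. Each window runs 5′ to 3′ from 250 bases before the start to 50 bases from it, and capitals mark TATAAA on either strand.
Ddc upstream start, chr11:11898095-11898394, minus strand: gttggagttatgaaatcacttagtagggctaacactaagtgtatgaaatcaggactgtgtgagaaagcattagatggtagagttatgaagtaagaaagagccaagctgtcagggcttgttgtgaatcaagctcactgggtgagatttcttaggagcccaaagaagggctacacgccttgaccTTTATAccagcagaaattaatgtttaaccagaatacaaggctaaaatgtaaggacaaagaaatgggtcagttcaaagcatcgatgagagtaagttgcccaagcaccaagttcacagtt
Ddc downstream start, chr11:11890359-11890658, minus strand: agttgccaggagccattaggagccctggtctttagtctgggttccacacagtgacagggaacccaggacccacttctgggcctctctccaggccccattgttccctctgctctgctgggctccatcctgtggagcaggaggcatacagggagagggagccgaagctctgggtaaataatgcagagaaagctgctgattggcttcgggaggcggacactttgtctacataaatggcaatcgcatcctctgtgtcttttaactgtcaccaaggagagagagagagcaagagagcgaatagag
The upstream window held 41.3% G and C and the downstream window 54.3%, where the median of all windows was 52.7%. The only match in either was TATAAA on the opposite strand of the upstream window, beginning at -68, a motif that 13.6% of 32851 promoter windows of this length held. Other motifs searched on both strands were TTCNNNGAA (a STAT5-type site, 8.3% of windows), GTTAAT (part of an HNF1 site, 7.1%), TGACGTCA (the cyclic AMP response element, 1.79%) and GGGCGG (a GC box, 35.7%). Among the 9 windows found for 8 of the 10 genes, TTCNNNGAA was in 0, GTTAAT in 1 (Pcbd1), TGACGTCA in 1 (Slc18a2), TATAAA in 3 (Ddc, Gch1, Pcbd1) and GGGCGG in 7, all but those of Ddc. The motifs were chosen after the sequences had been seen, and a match is a description of letters, not a site.

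The probe sets whose values over the 6 arrays lay closest to each Ddc probe set, after centring each on its own mean, differed between the pair. Nearest to 1426215_at were Trim27, at a Euclidean distance of 0.0395 on the log2 scale, Rps27l at 0.0464 and Ina at 0.0531, with log2 differences of 0.35, 0.34 and 0.36. Nearest to 1430591_at were Ahsa2 at 0.108, Lrrn3 at 0.127 and Zfp941 at 0.140, with log2 differences of -0.45, -0.50 and -0.53, of which Ahsa2 passed (limma adjusted p = 0.037) and Lrrn3 and Zfp941 did not (0.12 and 0.35). Like 1430591_at, all 3 of the latter were highest on non-pregnant replicate 2. These probe sets were picked for likeness over the same arrays. Their similar differences, that shared peak and the unlike neighbours of the pair therefore follow from the choice.

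The enzymes that build tetrahydrobiopterin gave no call. Gch1, which sets the rate of that synthesis, had 7419.8, 7416.6 and 7809.1 in probe set 1420499_at without pregnancy and 7764.4, 6833.5 and 7436.9 with it. The groups overlapped, at means of 7548.5 ± 226 and 7345 ± 472, and the log2 difference was -0.04 ± 0.06 (limma adjusted p = 0.76; fold 0.886 to 1.07). Another probe set of Gch1, 1429692_s_at, whose suffix marks probes shared by several transcripts, read 3778.7, 3338.7 and 4140.0 against 3215.5, 3148.2 and 3181.5. All 3 pregnant arrays were below the non-pregnant ones and close to each other, but the log2 difference of -0.23 ± 0.08 did not pass (limma adjusted p = 0.090; fold 0.757 to 0.958). Without non-pregnant replicate 2 it was -0.31 and did pass (adjusted p = 0.024), and with the acinar covariate it was -0.02.

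Pts, the next enzyme, had 3068 ± 218 without and 3311 ± 115 with pregnancy in probe set 1450660_at. Its log2 difference was 0.11 ± 0.07 (limma adjusted p = 0.39; fold 0.971 to 1.20). It was 0.055 without non-pregnant replicate 3 and -0.028 with the acinar covariate. A dim probe set of Pts, 1458402_at, lay at 1.3 to 6.7 on the non-pregnant arrays and at 39.5, 3.6 and 36.3 on the pregnant ones, so 4 of its 6 values were within the range of the TrpnX controls and it was not tested. With the log2 values of both probe sets averaged, the dim one included, Pts had 0.53 ± 0.18 (limma adjusted p = 0.098). Spr, which completes the cofactor, read 290.2, 257.4 and 305.0 without pregnancy and 227.0, 219.9 and 204.3 with it. The groups did not overlap and the pregnant arrays were lower, at 217 ± 11.6 against 284 ± 24.4. At -0.36 ± 0.15 the log2 difference nevertheless did not pass (limma adjusted p = 0.16; fold 0.624 to 0.969).

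The recycling enzymes gave no call either. Pcbd1, which also serves as a dimerisation cofactor of the transcription factor HNF1, had 10567 ± 859 without and 10556.5 ± 262 with pregnancy. This was a log2 difference of 0.001 ± 0.06 (limma adjusted p = 0.99; fold 0.910 to 1.10). Qdpr had 13119 ± 340.0 and 13037 ± 668 in probe set 1437993_x_at, whose suffix marks probes that may also match other genes, and 4087 ± 152 and 4192 ± 181 in 1423664_at. Their log2 differences were -0.01 ± 0.05 (fold 0.914 to 1.08) and 0.04 ± 0.06 (fold 0.933 to 1.13), with limma adjusted p of 0.945 and 0.795. No difference was detectable at this number of arrays beyond these intervals.

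**Figure D3:**
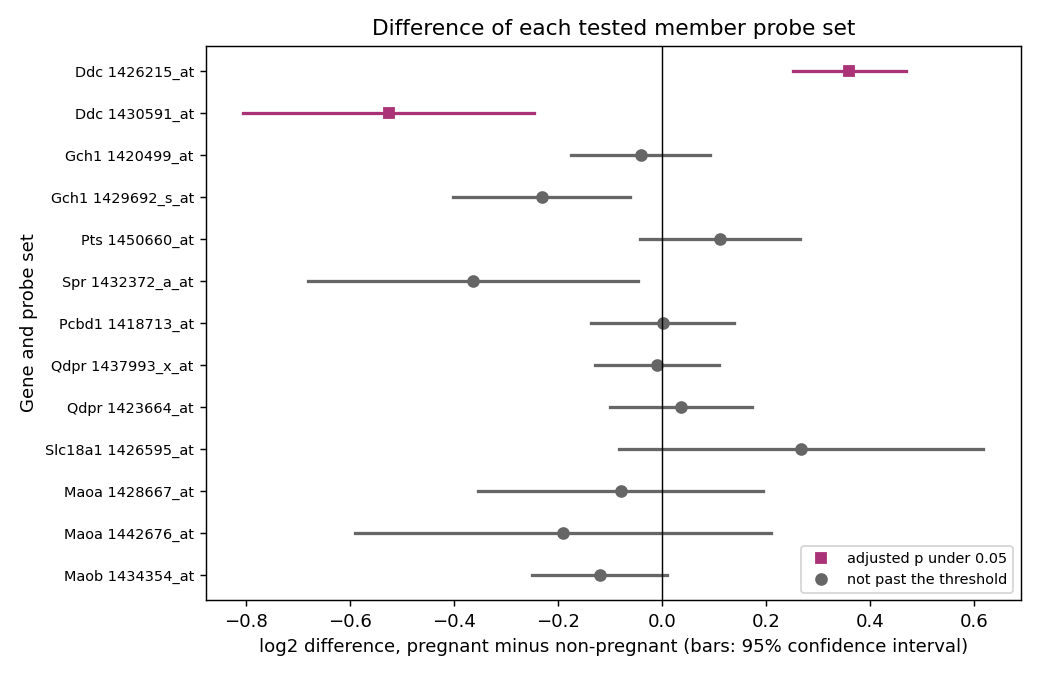
Log2 difference, pregnant minus non-pregnant, of the 13 tested probe sets, with bars for limma's 95% confidence interval; purple squares passed an adjusted p of 0.05 and grey circles did not. The Ddc probe sets lie on opposite sides of 0 (0.36 and -0.53), and 9 of the other 11 have intervals that include 0.

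Neither vesicular monoamine transporter gave a call, and Slc18a2 was too dim to be tested. Slc18a1 had 458.1, 371.7 and 331.2 in probe set 1426595_at without pregnancy and 540.7, 497.9 and 373.3 with it, so the groups overlapped and pregnant replicate 3 lay among the non-pregnant arrays. The means were 387 ± 64.8 and 471 ± 87.0, and the log2 difference was 0.27 ± 0.16 (limma adjusted p = 0.36; fold 0.944 to 1.53). It ranged from 0.16 without pregnant replicate 1 to 0.42 without pregnant replicate 3, and was 0.17 without non-pregnant replicate 3 and 0.10 with the acinar covariate. Of its other probe sets, 1446248_at ranged from 6.2 to 82.2 and 1458777_at from 1.4 to 7.9, and neither was tested. Slc18a2 had 1 probe set, which read 63.4, 57.6 and 49.8 without pregnancy and 12.9, 55.6 and 47.9 with it. Its mean over the arrays fell short of the brightness needed for testing, 1 of the 6 values was within the range of the TrpnX controls, and pregnant replicate 1 alone was far below the rest. With no filter its log2 difference was -0.51 ± 0.41 (limma adjusted p = 0.63). Mast cells, which also carry VMAT2, were near the floor in most of their markers: Cpa3 read at most 41.4, Tpsab1 49.1, Tpsb2 70.8, Cma1 57.8, Ms4a2 34.2 and Mcpt4 31.1. Of the 2 of 8 mast cell markers tested, Kit fell and Hdc did not pass, and the summed signal of the list, most of it from Kit and Hdc, was 556.1 to 681.7 without and 463.3 to 515.9 with pregnancy. The tryptase Tpsab1, too dim to be tested, read 6.5 to 10.5 without and 13.6 to 49.1 with pregnancy, higher on every pregnant array. Over the array 11.6% of tested probe sets were higher in this way. For Tpsab1, 4 of the 6 values were within the TrpnX range, and with no filter it did not pass (limma adjusted p = 0.20). In the other untested markers the groups overlapped, with lower means in pregnancy for Tpsb2 and Mcpt4 and higher ones for Cpa3, Cma1 and Ms4a2. The part of such cells in the Slc18a2 values was not tested.

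The monoamine oxidases, encoded side by side on the X chromosome, did not pass either. Maoa, the form with a preference for serotonin, had 391 ± 21.5 without and 369 ± 36.5 with pregnancy in probe set 1428667_at (log2 difference -0.08 ± 0.13, limma adjusted p = 0.77; fold 0.782 to 1.14). Its dimmer probe set 1442676_at had 235 ± 44.7 and 203 ± 30.7 (-0.19 ± 0.18, limma adjusted p = 0.60; fold 0.664 to 1.16). In both the groups overlapped. Maob read 6131.0, 6306.0 and 5946.0 without pregnancy and 5407.1, 5945.8 and 5572.3 with it. The groups failed to overlap only by the narrow gap between 5945.8 and 5946.0. The means were 6128 ± 180.0 and 5642 ± 276, and the log2 difference was -0.12 ± 0.06 (limma adjusted p = 0.26; fold 0.841 to 1.01). In all, 1 of the 13 tested probe sets had every pregnant array above the non-pregnant ones and 4 had every one below (1430591_at of Ddc, 1429692_s_at of Gch1, Spr and Maob), where the array had 11.6% and 16.1%.

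Around these members, a list of 43 genes was set for tryptophan supply, cofactor control, amine transport, later steps of breakdown and related amines, of which 35 had a named probe set and 28 were tested. In the list 2 of the 28 genes rose and 3 fell, where 6.10% of all genes tested were higher and 5.79% lower, and the median log2 difference was -0.13, beside -0.04 over all genes. The risers were the hydroxylases themselves, Tph1 from 53.2 ± 26.2 to 4749 ± 312 (log2 difference 6.17 ± 0.21, limma adjusted p = 7.1e-09) and Tph2 from 73.5 ± 33.0 to 1302 ± 230 (3.92 ± 0.22, limma adjusted p = 7.9e-07). The sizes of these differences depend on the low non-pregnant signals, which for Tph1 were 50.3, 80.8 and 28.6. The last of these was within the range of the TrpnX controls. Tph1 was bright enough to be tested only through the pregnant arrays, and with no filter it passed too (limma adjusted p = 2.5e-07). Over the alternative settings the log2 difference of Tph1 ran from 5.38 to 6.57 and that of Tph2 from 2.98 to 4.21. The amino acid transporter Slc7a5 had 0.01 ± 0.10 (limma adjusted p = 0.98) and the aromatic amino acid transporter Slc16a10 had -0.24 ± 0.08 (limma adjusted p = 0.074, 0.024 without non-pregnant replicate 2, and 0.97 at -0.018 with the acinar covariate). Gchfr, the feedback regulator of GTP cyclohydrolase, was dim at 77.5 ± 3.45 and 55.5 ± 17.9 (-0.42 ± 0.30, limma adjusted p = 0.46).

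The 3 genes of the list that fell take part in amine uptake, aldehyde oxidation and GABA synthesis. Slc29a4, the plasma membrane monoamine transporter, read 1479, 1468.2 and 1622.4 without and 1031.3, 977.2 and 1199 with pregnancy, a log2 difference of -0.51 ± 0.09 (limma adjusted p = 0.0049). The groups were well apart, and 2 of its 2 tested probe sets were called lower. With the acinar covariate it had -0.34 (adjusted p = 0.37). The serotonin transporter Slc6a4 read 2.7 to 6.2 on the other arrays and 42.5 on pregnant replicate 3, and was not tested. The aldehyde dehydrogenase Aldh1a1 read 138.5, 175 and 100.2 without and 22.8, 13.7 and 66.3 with pregnancy. The groups did not overlap, 2 of the pregnant values were within the range of the TrpnX controls, and the gene was bright enough to be tested only through the non-pregnant arrays. It fell from 138 ± 37.4 to 34.3 ± 28.1 (-1.73 ± 0.39, limma adjusted p = 0.015). The size ran from -2.24 with a pseudocount of 1 to -1.06 with a pseudocount of 64, and the call was lost without non-pregnant replicate 2, pregnant replicate 1 or pregnant replicate 2 (adjusted p 0.067, 0.059 and 0.051). Aldh2, the mitochondrial enzyme that oxidises the aldehyde formed by monoamine oxidase, had -0.25 ± 0.08 (limma adjusted p = 0.074), and the aldehyde reductase Akr1a1 had 0.19 ± 0.06 (limma adjusted p = 0.055, and 0.0050 without non-pregnant replicate 1), while 2 of its 4 probe sets, the brightest not among them, were called higher. Gad1, the glutamate decarboxylase that makes GABA with the same pyridoxal phosphate cofactor as Ddc, fell from 7048 ± 407 to 5251 ± 114 (-0.42 ± 0.06, limma adjusted p = 9.8e-04), in 2 of 2 tested probe sets. Without the variance trend, which leaves the differences themselves the same, the 3 falls did not pass (adjusted p 0.067 to 0.087). Nor did they with the acinar covariate, where Gad1 had -0.48 (adjusted p = 0.053) and Aldh1a1 -1.71 (adjusted p = 0.30).

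**Figure D4:**
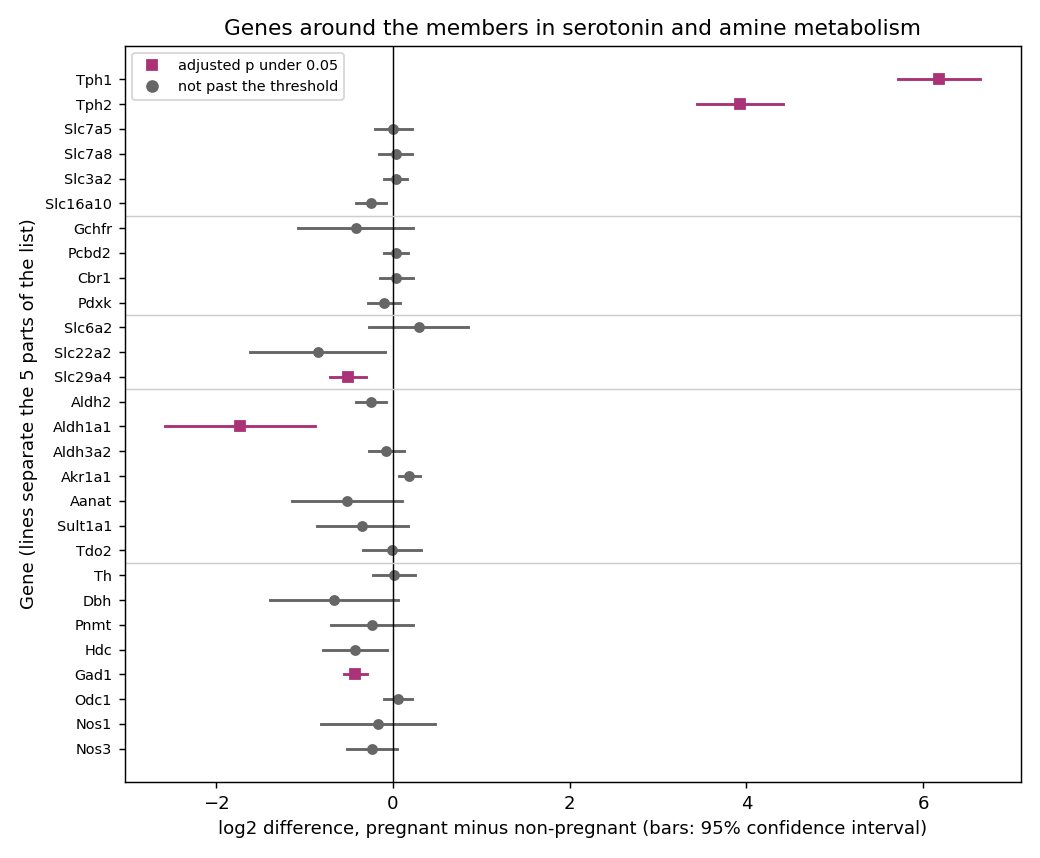
Log2 difference, pregnant minus non-pregnant, of the 28 tested genes around the members, with bars for limma's 95% confidence interval; purple squares passed an adjusted p of 0.05. Tph1 (6.17) and Tph2 (3.92) stand far to the right, and Slc29a4, Aldh1a1 and Gad1 are the 3 squares left of 0.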

How the data were processed

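Islet RNA of 3 non-pregnant and 3 pregnant (12.5 dpc) samples was hybridised as biotinylated cRNA to Affymetrix expression arrays, per the labels' protocols. The authors deposited linear intensities, which the submitters' processing notes name as MAS5 output (version and settings: not given in the sources used here). All arrays shared a 2% trimmed mean of 500.003, so no further scaling was applied.

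Values were taken as log2(signal + 16), so log2 differences of dim probe sets are understated. After 64 AFFX controls were left out of 45101 probe sets, the top 60% by mean were fitted with limma 3.58.1 in R 4.3.3 (eBayes with a variance trend, 2-sided, 4 residual degrees of freedom, Benjamini-Hochberg over 27022). The fit was also run on simulated arrays with independent normal errors and variances taken from this same fit. They held no batch or cell type effect, so that run checks the calculation and not how well the model suits these arrays. Errors of signals are standard deviations, those of log2 differences limma's standard errors. For differences between probe sets of 1 gene, the standard error was instead taken from the variances within the groups. A level of 1 probe set is no measure against that of another.

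Symbols came from the platform annotation, which gave 34958 probe sets 1 symbol, 932 several and 9211 none; only the first were named. Promoter windows came from RefSeq. All probe sets of the members were named, as were the list genes past the threshold with 6 others. The 8 other genes of the list around the members were not analysed here. The members and lists were chosen with earlier results of these data known. Alternatives were pseudocounts of 1 and 64, quantile normalization, median centring, no filter or the top 40%, no variance trend, robust eBayes, the replicate number as a block, an acinar covariate, each array left out and probe sets averaged by gene. Figures were drawn with matplotlib 3.10.9.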

Additional observations from a re-analysis of the deposited data

How the results depend on the processing

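The Ddc probe sets kept their directions in all 16 alternatives; the calls lost were those without the variance trend (0.36 and -0.53, adjusted p = 0.079 and 0.13), with the acinar covariate (0.38 and -0.87) and, for 1430591_at, without 3 of the arrays (range -0.60 to -0.38 with any 1 left out). The members called were therefore 0 higher and 0 lower without the variance trend and with the acinar covariate, 0 genes higher with probe sets averaged, and 0 to 1 probe sets lower with 1 array left out; of the list around them 0 fell without the trend, where the differences were the same, and with the covariate, where Gad1 had -0.48 and Aldh1a1 -1.71. Over the array, 583 were lower with median centring, 393 higher and 210 lower without the trend, 333 higher and 153 lower with the covariate, and 808 to 1282 higher and 674 to 977 lower with 1 array left out. Of the other 11 member probe sets, 10 passed in no alternative and 6 kept their sign in all. Signs turned with quantile normalization for Pcbd1 (-0.032), with median centring for Gch1 1420499_at (0.035) and Qdpr 1437993_x_at (0.066), and with the acinar covariate for Pts (-0.028), Maoa 1428667_at (0.017) and Slc7a5 (-0.24). With 1 array left out, values ran from -0.042 to 0.067 for Pcbd1, -0.082 to 0.010 for Gch1 1420499_at, -0.052 to 0.014 for Qdpr 1437993_x_at, -0.12 to 0.0014 for Maoa 1428667_at, -0.081 to 0.11 for Slc7a5 and -0.037 to 0.29 for the difference between the Maoa probe sets. The cause of these turns was not tested. As fitted with the replicate number as a block, 1426215_at had 0.36 (adjusted p = 0.0011) and 1430591_at -0.53 (adjusted p = 0.038), and no member's call changed; Akr1a1 passed (0.19, adjusted p = 0.028), as it did with quantile normalization (0.24), the top 40% and robust eBayes. The arrays share only a number: the deviations of same-numbered arrays from their group means correlated at -0.07 to 0.03. The comparisons of probe set pairs other than Ddc were added after the data were seen.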
